A study of Mus musculus with 10 samples.

Results

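Calcium handling genes of the heart muscle cell were examined in left ventricular RNA of 10 wild-type male C57BL/6J mice, 5 controls numbered TT-583 to TT-587 and 5 HFD+mTAC animals numbered TT-588 to TT-592. The set was given by symbol and holds 10 genes, Ryr2, Casq2, Jph2, Hrc, Atp2a2, Pln, Sln, Cacna1c, Slc8a1 and Camk2d. All 10 symbols were rows among the 29564 genes listed, and 8 of them were among the 13287 protein-coding genes tested. HFD+mTAC stands for a high-fat diet (60% of kilocalories from fat) combined with moderate transverse aortic constriction, a partial tightening of the aorta that loads the left ventricle, done at 11 weeks of age. Control mice had no constriction and ate chow with 10% of kilocalories from fat. After 16 weeks of induction, mice of both groups were given vehicle per the labels, and no mouse carried an engineered allele. The study's methods state the make-up of the vehicle (5% DMSO, 45% PEG-300 and 50% water) and daily dosing at 10 mL/kg for HFD+mTAC mice. They give 6 to 9 weeks of dosing across the treatment experiments, and no separate schedule for controls. Operation and diet changed together between the groups, so their parts cannot be told apart. The RNA was polyA RNA of ventricular tissue, not of isolated cells, so that fewer cardiomyocytes and less RNA per cardiomyocyte cannot be told apart in any value below.

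In a heartbeat, calcium enters through the L-type channel of the cell membrane and opens the ryanodine receptor, which releases the larger store held in the sarcoplasmic reticulum. The muscle relaxes when the calcium pump SERCA2 returns calcium to that store and the sodium-calcium exchanger carries the rest out of the cell. Small membrane proteins restrain the pump, buffers hold calcium in the store, junctophilin keeps both membranes close, and a calmodulin-dependent kinase modifies several of these proteins. Slow relaxation is a feature of heart failure with preserved ejection fraction, the condition this mouse model stands for.

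The depth was 34170139 to 53672260 estimated counts per mouse. Counts on the tested genes, which leave out genes encoded by mitochondrial DNA, came to 12643603 to 21062165. Ventricular identity was clear from the markers, since Myl2, the ventricular myosin light chain, was at 6934 to 9941 TPM and Myl7, its atrial counterpart, at 0 to 0.830 TPM, although Myh6, the main myosin heavy chain of the adult mouse ventricle, was at no more than 17.7 to 37.1 TPM. In GRCm38, the release and junction genes lie at chr13:11553102-12106945 (Ryr2, minus strand), chr3:102086415-102146514 (Casq2, plus), chr2:163336242-163397993 (Jph2, minus) and chr7:45335290-45338974 (Hrc, plus). The pump gene Atp2a2 lies at chr5:122453513-122502225 (minus) and Pln at chr10:53337667-53345987 (plus), Cacna1c at chr6:118587240-119196418 (minus) and Camk2d at chr3:126596302-126846326 (plus). Levels are given here as CPM, estimated counts scaled to the library size of the tested genes with TMM factors, or as TPM, the deposited value. TPM divides by an average transcript length and is scaled over a wider set. That set includes the genes of mitochondrial DNA, which held 43.8% to 52.7% of the counts of a mouse.

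The 8 tested members covered a wide range of levels. In TPM, Atp2a2 was highest at 427 ± 122 (SD, n = 10), followed by Pln at 268 ± 56.7, Hrc at 103 ± 21.9 and Casq2 at 91.0 ± 41.5. Jph2 (7.81 ± 1.98 TPM), Ryr2 (6.86 ± 1.78 TPM), Camk2d (6.21 ± 3.01 TPM) and Cacna1c (5.88 ± 1.75 TPM) followed well below, and their ranges over the 10 mice overlapped from each to the next. Camk2d was above Cacna1c in 5 of 10 mice, so that pair had no order. Atp2a2 was above Pln in 10 of 10 mice in TPM. Per kilobase of the longest annotated transcript, an alternative chosen after the data were seen, Pln (2209 ± 245 CPM per kb) and Atp2a2 (2120 ± 497 CPM per kb) could not be ordered, each being higher in 5 of 10 mice, whereas Jph2 (121 ± 13.3 CPM per kb), Ryr2 (72.1 ± 12.1 CPM per kb) and Camk2d (27.9 ± 3.39 CPM per kb) no longer overlapped. By total counts, Atp2a2 was the 5th most abundant of the tested genes and Pln the 14th, with 1.2% and 0.515% of the counts on tested genes.

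**Figure D1:**
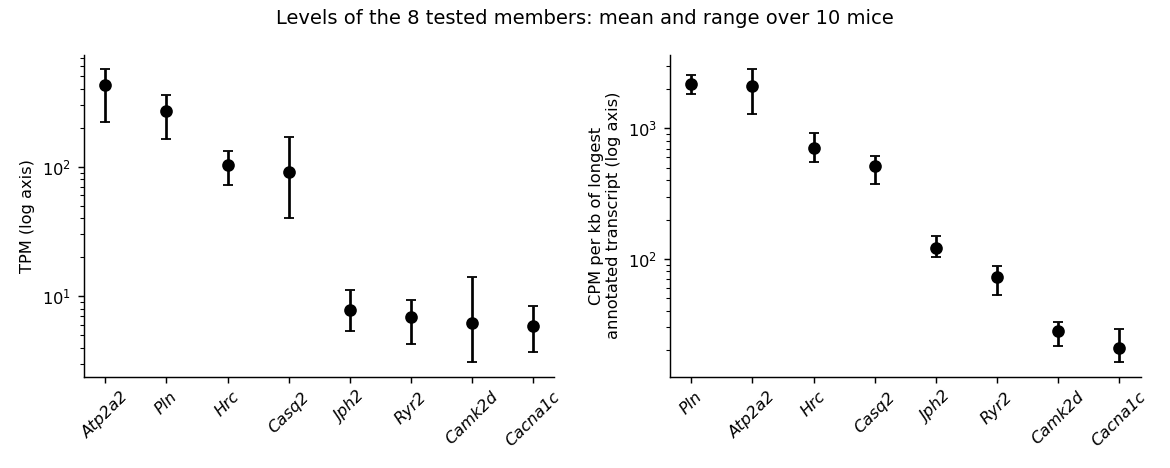
Mean level of the 8 tested members (points) with the lowest and highest of 10 mice (bars), in TPM (left) and in CPM per kb of the longest annotated transcript (right), both on log axes. Atp2a2 was highest at 427 TPM, but Pln (2209) and Atp2a2 (2120) lay together on the right-hand scale.

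Sln and Slc8a1 gave almost no counts. Sln, which encodes sarcolipin, a restrainer of the pump known mainly from atria and skeletal muscle, had an estimated 3 counts in control mouse TT-586, 1 count in HFD+mTAC mouse TT-588 and 0 in the other 8 mice. The summed TPM of 8 atrial cardiomyocyte markers was 129 in TT-586, within the control range of 88.3 to 146, and 58.1 in TT-588. Most of that sum was Nppa, at 122 TPM in TT-586 and 52.0 TPM in TT-588. Myl7 was at 0.830 TPM in TT-586, the highest of the 10 mice, and at 0.0788 TPM in TT-588. Myl4 was at 1.26 TPM in TT-586, the lowest of the control mice. The part of atrial tissue in the Sln counts was not tested. Slc8a1, the sodium-calcium exchanger that the heart is known to express, was listed at 0 counts and 0 TPM in 10 of 10 mice. It lies at chr17:81373105-81738377 on the minus strand (GRCm38), and the only other listed gene within that span, Gm11096, was also at 0. The estimate behind such a 0 was not tested, and Itpr1 and Slc8a2 were likewise listed at 0 in every mouse, as were 10454 (35.4%) of all listed genes. A count of 3 would be 0.144 to 0.236 CPM here, so no comparison between groups was made for either gene.

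None of the 8 tested members passed the test between groups, the quasi-likelihood F test of edgeR, whose p-values were adjusted by Benjamini-Hochberg across 13287 genes. This stands beside a background of 8 genes called, 0.0602% of those tested (6 higher and 2 lower in HFD+mTAC mice), so a count of 0 among 8 says little about the members. At an unadjusted p under 0.05, 0 of 8 members and 1099 of 13287 genes (8.27%) passed. DESeq2 also called 0 of 8 members, against 120 of 13019 genes (0.922%). Control and HFD+mTAC mice overlapped in CPM for 8 of 8 members, while 1.96% of tested genes had groups that did not overlap. Of the members, 7 had an edgeR log2 fold change below 0 and 1 above 0 under TMM scaling. The median was -0.06, against 0.00 over all tested genes. Scaled to cardiomyocyte markers instead, all 8 were on the higher side, as described below.

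The release side of the store was formed by Ryr2, Casq2, Jph2 and Hrc. Ryr2, the ryanodine receptor through which the store empties, measured 1218, 1238, 1410, 1258 and 1085 CPM across the controls, from TT-583 onwards, and 1466, 1421, 898, 885 and 1244 CPM across the HFD+mTAC animals, from TT-588 onwards. The HFD+mTAC mice held both the 2 highest and the 2 lowest values, with TT-590 and TT-591 at the bottom, and spread more widely (SD 279) than the control mice (SD 116). The log2 fold change was -0.07 (95% interval -0.39 to 0.25, adjusted p = 0.940, edgeR).

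Casq2, cardiac calsequestrin, the main calcium buffer inside the store, measured 1316, 1236, 1563, 1531 and 1121 CPM across the controls and 1568, 1470, 1266, 955 and 1241 CPM across the HFD+mTAC animals. The groups shared nearly the same upper end and TT-591 alone lay below all control mice. Its log2 fold change was -0.06 (95% interval -0.36 to 0.24, adjusted p = 0.947, edgeR).

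Jph2, junctophilin, which tethers the store to the cell membrane, measured 476, 563, 627, 488 and 433 CPM across the controls and 547, 522, 470, 480 and 507 CPM across the HFD+mTAC animals. All 5 HFD+mTAC values lay inside the control range, and the log2 fold change was -0.03 (95% interval -0.26 to 0.19, adjusted p = 0.960, edgeR). Hrc, a histidine-rich calcium-binding protein of the store, measured 1743, 1693, 2239, 1884 and 1501 CPM across the controls and 1710, 2009, 1355, 1336 and 1649 CPM across the HFD+mTAC animals. TT-590 and TT-591 lay below every control mouse, 1 of 5 HFD+mTAC mice was above the control mean, and the log2 fold change of -0.17 (95% interval -0.46 to 0.12, adjusted p = 0.800, edgeR) was the farthest from 0 among the members under TMM scaling.

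Uptake into the store depends on Atp2a2 and Pln. Atp2a2 encodes SERCA2, the pump, and measured 11298, 11676, 16151, 13535 and 9359 CPM across the controls and 14460, 14938, 9262, 7283 and 12309 CPM across the HFD+mTAC animals. The highest mouse was a control (TT-585) and the lowest an HFD+mTAC mouse (TT-591), 2.22-fold apart, and both groups spanned most of that range. The group means were 12404 ± 2566 and 11651 ± 3313 CPM (SD, n = 5 each), and the log2 fold change was -0.09 with a 95% interval from -0.53 to 0.34 (adjusted p = 0.943, edgeR). In linear terms the interval reaches from 30.5% lower to 27.0% higher, so that differences within these bounds are compatible with the values of these mice.

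Pln, phospholamban, which slows the pump until it is phosphorylated, measured 5163, 4733, 5973, 5887 and 5306 CPM across the controls and 5010, 5675, 4483, 4275 and 5048 CPM across the HFD+mTAC animals. It varied less between mice than the pump did (1.40-fold from lowest to highest), and 4 of 5 HFD+mTAC mice lay below the control mean, but the groups overlapped. The log2 fold change was -0.14 (95% interval -0.36 to 0.08, adjusted p = 0.778, edgeR), the smallest adjusted p of the 8.

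At the cell membrane, Cacna1c, the pore-forming subunit of the L-type calcium channel, measured 231, 212, 274, 256 and 320 CPM across the controls and 382, 269, 217, 221 and 316 CPM across the HFD+mTAC animals. TT-588 was the highest of all 10 mice, whereas TT-590 and TT-591 were near the lowest control mouse. Its log2 fold change, 0.12 (95% interval -0.23 to 0.47, adjusted p = 0.910, edgeR), was the only one above 0 under TMM scaling, and it was -0.09 once average transcript lengths entered the fit. Camk2d, the main cardiac form of calmodulin-dependent kinase II, measured 146, 137, 172, 172 and 148 CPM across the controls and 182, 156, 151, 118 and 161 CPM across the HFD+mTAC animals. The extremes were both HFD+mTAC mice, TT-588 and TT-591, and the group means of 155 ± 16.3 and 154 ± 22.9 CPM (SD, n = 5 each) differed by -0.01 on the log2 scale (95% interval -0.26 to 0.23, adjusted p = 0.991, edgeR).

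**Figure D2:**
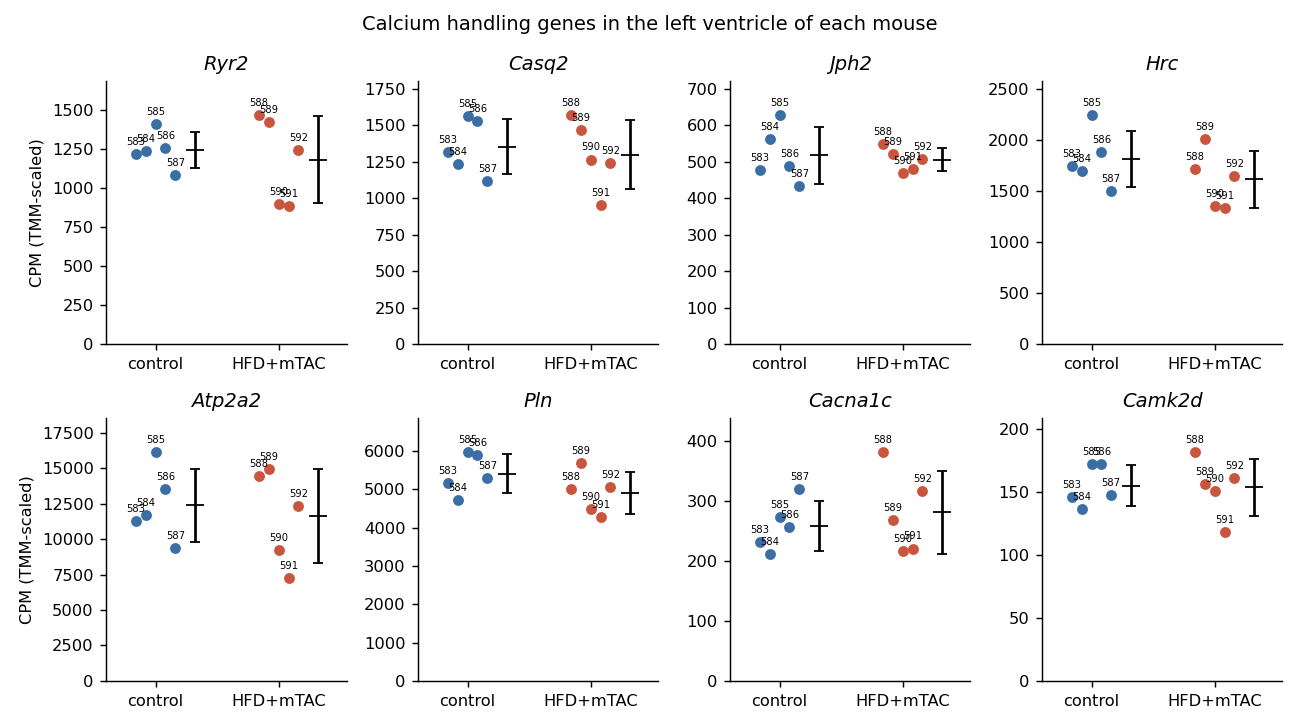
CPM of the 8 tested members in each mouse (numbered points) for control and HFD+mTAC mice, with mean and SD (n = 5) beside each group and axes starting at 0. The groups overlap in every panel, and TT-591 is the lowest of 10 mice in 6 of 8 panels.

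The sign of these small differences depended on the scale. The counts of 10 cardiomyocyte marker genes were lower in HFD+mTAC mice, at 64059 to 70729 CPM in sum against 73634 to 79812 CPM in control mice, with no overlap. Their summed TPM was 19188 to 22844 against 21914 to 27522 (exact two-sided permutation p = 0.0238, 0.238 adjusted over 10 marker lists), which did not pass after adjustment. The other 9 lists overlapped between groups (exact permutation p from 0.0794 for atrial cardiomyocyte markers, at 50.3 to 133 TPM in HFD+mTAC and 88.3 to 146 TPM in control mice, to 0.984 for pacemaker and conduction cell markers). Of the 10 cardiomyocyte markers, 8 had an edgeR log2 fold change below 0 under TMM scaling, from -0.33 (Myl3) to -0.09 (Ttn). Actn2 and Mybpc3 were at 0.02 and 0.02, and none of the markers passed the adjusted threshold (edgeR). Dividing by the marker counts moved the median of all genes up by 0.19 on the log2 scale and put all 8 members above 0, from 0.02 for Hrc to 0.32 for Cacna1c (adjusted p = 0.228, edgeR, the smallest of the 8). Relative to that shift, 1 of 8 members lay above the median of all genes, as it did under TMM scaling. The calls over all genes then numbered 178, of which 175 were higher and 3 lower, in place of 6 higher and 2 lower. The part of cell composition in these differences was not tested.

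**Figure D3:**
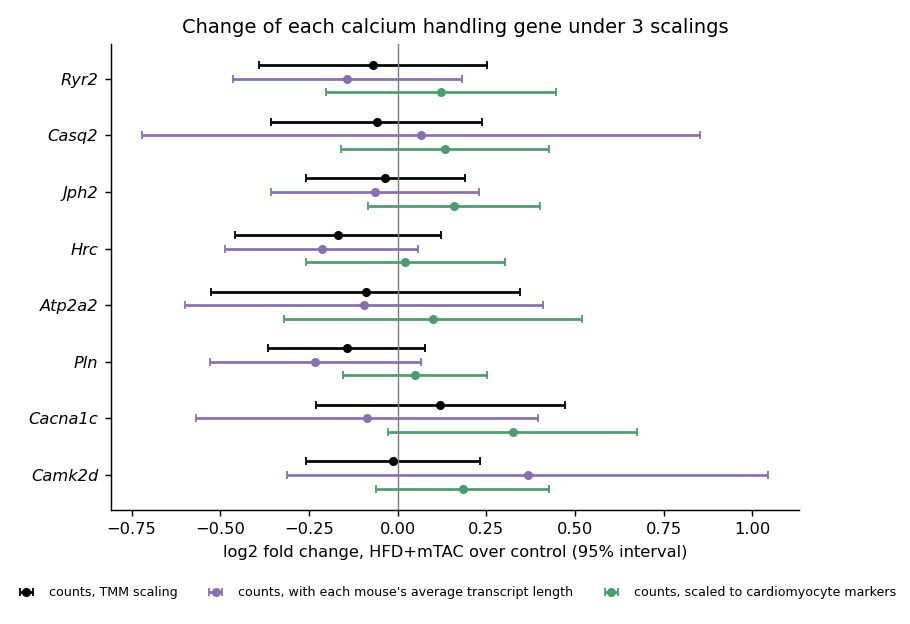
Log2 fold change of each tested member, HFD+mTAC over control, with its 95% interval from edgeR, under TMM scaling, with average transcript lengths in the fit, and scaled to cardiomyocyte markers. Each of the 24 intervals includes 0, and the points shift to the right under marker scaling.

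Ratios between members compare partners within a mouse and do not depend on library scaling. Of the 6 ratios chosen, 4 could be computed, since Sln and Slc8a1 were at or near 0. The Pln to Atp2a2 ratio of TPM, the restrainer over the pump, was 0.760, 0.627, 0.547, 0.564 and 0.912 across the controls and 0.527, 0.553, 0.586, 0.938 and 0.543 across the HFD+mTAC animals. TT-587 and TT-591, the mice with the lowest Atp2a2 of their groups by CPM, had the highest ratio, and the groups overlapped (log2 difference -0.13, exact two-sided permutation p = 0.563, 0.841 adjusted over 4 ratios). The Casq2 to Ryr2 ratio ran from 7.50 to 17.9 in control and from 8.79 to 20.99 in HFD+mTAC mice (log2 difference 0.20, exact permutation p = 0.524). Ryr2 to Cacna1c, release channel over trigger channel, ran from 0.778 to 1.64 and from 0.971 to 1.65 (log2 difference -0.06, exact permutation p = 0.802). Jph2 to Cacna1c ran from 0.749 to 1.96 and from 0.978 to 1.66 (log2 difference 0.06, exact permutation p = 0.841). Taken from CPM, the log2 differences were -0.03 (Pln to Atp2a2), 0.03 (Casq2 to Ryr2), -0.20 (Ryr2 to Cacna1c) and -0.12 (Jph2 to Cacna1c), so that 3 of 4 moved by over 1.5 times without a change of sign and the last turned. None of the 4 ratios passed the test on either scale. With a mouse left out, the difference of Pln to Atp2a2 lay between -0.28 (without TT-591) and -0.01 (without TT-587), and that of Casq2 to Ryr2 between 0.03 (without TT-588) and 0.35 (without TT-585). The smallest p that 5 against 5 mice allow is 0.00794.

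The wider set of calcium genes was examined through 5 lists of 89 genes that exclude the members, of which 78 were tested. None passed the adjusted threshold, 30 were on the higher and 48 on the lower side under TMM scaling, and the median log2 difference was -0.04, against 0.00 over all genes. Scaled to cardiomyocyte markers, 65 were on the higher and 13 on the lower side, but the same number as before, 30, lay above the median of all genes, and with average transcript lengths in the fit the split was 39 and 39. At an unadjusted p under 0.05 there were 8 of 78 (2 higher, 6 lower), beside 8.27% of all tested genes.

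Of 17 tested genes of release and the junction, 9 were on the higher and 8 on the lower side under TMM scaling. Among them, Itpr3, an inositol trisphosphate receptor, was at 20.8 ± 2.79 CPM in control and 27.8 ± 3.87 CPM in HFD+mTAC mice (SD, n = 5 each; log2 fold change 0.42, SE 0.12, adjusted p = 0.329, edgeR). Scaled to cardiomyocyte markers, Itpr3 was the 1 gene of the 78 that was called. This stands beside 178 calls among all 13287 genes, of which 175 were higher, so it says little about Itpr3 itself. Jph3, the junctophilin known from brain, had the next smallest p on the higher side at under 1 CPM in every mouse. On the lower side stood Tmem38a, a potassium channel of the store, with a log2 fold change of -0.17 (SE 0.09), and Trdn, triadin, which anchors calsequestrin to the ryanodine receptor, with -0.22 (SE 0.13). Adjusted p was 0.607, 0.664 and 0.708 for Jph3, Tmem38a and Trdn (edgeR).

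Of 14 tested genes of uptake and its regulators, 4 were on the higher and 10 on the lower side under TMM scaling. Among them, Calr, calreticulin, a calcium-binding chaperone of the reticulum, was at 575 to 798 CPM in control and 474 to 546 CPM in HFD+mTAC mice, without overlap in CPM (log2 fold change -0.38, SE 0.10, adjusted p = 0.261 by edgeR). In TPM the groups did overlap for Calr, at 47.6 to 112 in control and 47.4 to 80.3 in HFD+mTAC mice. DESeq2 called Calr, and no other gene of the 78, beside 120 of 13019 genes (0.922%). Ppp1cc, a catalytic subunit of protein phosphatase 1, was at 134 ± 51.2 against 83.5 ± 7.93 CPM (SD, n = 5 each; log2 fold change -0.68, adjusted p = 0.388, edgeR), and its control values were the more spread. They were 199, 163, 79.9, 85.0 and 144 CPM from TT-583 onwards. TT-585 and TT-586 thus lay inside the HFD+mTAC range of 74.3 to 94.9 CPM, and the difference came from the other control mice. Ppp1r1a, an inhibitor of that phosphatase, and Akap7, an anchor of protein kinase A, had the smallest p on the higher side, with log2 fold changes of 0.75 (SE 0.38) and 0.16 (SE 0.11). Their adjusted p was 0.651 and 0.771 (edgeR). Ppp1r1a had few counts, at 0.588 to 2.61 CPM in control and 1.51 to 3.08 CPM in HFD+mTAC mice, and its groups overlapped.

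Of 20 tested transporters of the cell membrane, 7 were on the higher and 13 on the lower side under TMM scaling. Among them, Rrad, a small GTPase that restrains L-type channels, was at 268 ± 37.7 CPM in control and 185 ± 45.3 CPM in HFD+mTAC mice (SD, n = 5 each; log2 fold change -0.53, adjusted p = 0.352, edgeR). On the higher side, Cacna1h, a T-type calcium channel, had a log2 fold change of 0.27 (SE 0.21, adjusted p = 0.791, edgeR).

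Of 16 tested genes of calmodulin, its kinases and protein kinase A, 7 were on the higher and 9 on the lower side under TMM scaling. Among them, Prkacb and Calm3 had the smallest p on the higher side (log2 fold changes 0.17 and 0.12), and Calm2 and Camk2n1, an inhibitor of calmodulin-dependent kinase II, on the lower side (-0.18 and -0.30). All 11 genes of mitochondrial calcium transport were tested, and 3 were on the higher and 8 on the lower side under TMM scaling. The smallest p were those of Micu2 (0.13) and Vdac1 (0.04) on the higher and Vdac2 (-0.17) and Vdac3 (-0.13) on the lower side. Vdac2, an outer membrane channel, was at 677 to 740 CPM in control and 572 to 675 CPM in HFD+mTAC mice, with adjusted p = 0.567 (edgeR).

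Mouse-to-mouse variation was larger than the difference between groups, and it ran together in most members. Over the 10 mice, Atp2a2 and Ryr2 had a Pearson r of 0.94 on log2 CPM (permutation p = 1e-05, the smallest that 100000 permutations give, and 0.00439 adjusted over all 10091 other genes of at least 5 CPM). These p-values set Ryr2 against all genes. With Atp2a2 set against all genes, the same pair had permutation p = 4e-05, adjusted to 0.00448. Spearman's rho was 0.95 (permutation p = 0.00015), and r was 0.94 without TT-591 and TT-590, the mice farthest from the median of Ryr2. Of those genes, 0.218% had an r with Ryr2 as high as Atp2a2 had. From the other side, 0.763% had an r with Atp2a2 as high as Ryr2 had. With its group mean removed from every value, r was also 0.94.

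Atp2a2 ran with Casq2 (r = 0.93, permutation p = 0.00018, adjusted p = 0.00744; rho 0.81, permutation p = 0.00751) and with Hrc (r = 0.92, permutation p = 0.00018, adjusted p = 0.00744; rho 0.89, permutation p = 0.00143). Without TT-591 and TT-585, the mice farthest from the Atp2a2 median, r was 0.83 and 0.88. The adjusted p of these 2 pairs is for Atp2a2 against all genes. With Casq2 or Hrc set against all genes, adjusted permutation p was 0.0183 and 0.0386. Casq2 and Camk2d reached 0.89 (permutation p = 0.00078, adjusted p = 0.0260; rho 0.84, permutation p = 0.00364), and 0.73 without TT-591 and TT-588. With Camk2d set against all genes, adjusted permutation p was 0.0492. Pln was most like Hrc among the members, with r = 0.88 (permutation p = 0.00137, adjusted p = 0.110; rho 0.83, permutation p = 0.00472), and 0.76 without TT-591 and TT-585. Cacna1c and Jph2 were the least alike of the pairs, with r = 0.09 (permutation p = 0.803; rho 0.10, permutation p = 0.781; 0.09 without TT-588 and TT-584). The pump and the L-type channel gave r = 0.44 (permutation p = 0.209; rho 0.48, permutation p = 0.168), and 0.35 without TT-591 and TT-585.

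All 28 pairs of members had an r above 0, with a median of 0.70, and 13 reached 0.7. The median of each member's r with all other genes lay between -0.02 and 0.01. High values were still not limited to the members. Atp2a2 and Jph2 had r = 0.70, and 13.95% of the other genes had as high an r with Atp2a2, and 5.48% with Jph2. The share of other genes with an r of at least 0.8 ran from 1.07% for Cacna1c to 8.17% for Atp2a2. Leaving out the 2 farthest mice lowered the median of the 28 pairs to 0.55 and the pairs at 0.7 to 8, and leaving out TT-591 alone lowered that count to 9. TT-591 was the lowest mouse in 6 of 8 members, and TT-590 and TT-591 lay below the median of the 10 mice in 8 of 8, while TT-585 and TT-589 did so in 0 of 8. The values share a scaling per mouse, and the TMM factor moved against Atp2a2 (r = -0.73, permutation p = 0.0173, 0.204 adjusted over 32 relations; rho -0.55, permutation p = 0.105) but only at r = -0.29 without its 2 farthest mice. The cardiomyocyte marker counts in CPM had r = 0.24 with Atp2a2 (permutation p = 0.503; rho 0.16, permutation p = 0.658; 0.09 without the 2 farthest mice), and counts divided by those markers gave a median r of 0.73 over the 28 pairs. For other members, the TMM factor had its strongest relation with Hrc (r = -0.79, permutation p = 0.00679, adjusted p = 0.204, and rho -0.73, permutation p = 0.0203, r -0.54 without the 2 farthest mice), and the marker counts with Pln (r = 0.65, permutation p = 0.0446, adjusted p = 0.204, and rho 0.67, permutation p = 0.0400, r 0.54 without the 2 farthest mice). Total counts on tested genes were most related to Jph2 (r = 0.68, permutation p = 0.0292, adjusted p = 0.204, and rho 0.71, permutation p = 0.0266, r 0.88 without the 2 farthest mice) and Hrc (r = 0.66, permutation p = 0.0380, adjusted p = 0.204, and rho 0.72, permutation p = 0.0238, r 0.54 without the 2 farthest mice), and had r = 0.52 with Atp2a2 (permutation p = 0.123, and rho 0.61, permutation p = 0.0672, r 0.50 without the 2 farthest mice). The part of scaling and depth in the shared variation was not tested. The mitochondrial share of counts had r = 0.01 with Atp2a2 (permutation p = 0.985; rho 0.12, permutation p = 0.757; -0.05 without the 2 farthest mice).

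**Figure D4:**
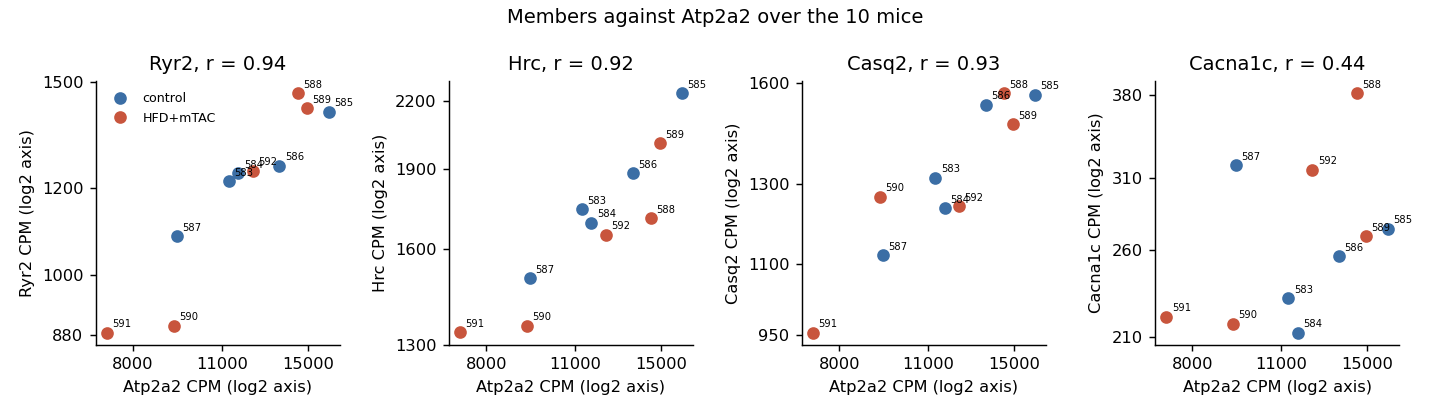
CPM of Ryr2, Hrc, Casq2 and Cacna1c against that of Atp2a2 in the 10 mice (numbered points, log2 axes). Control and HFD+mTAC mice lie along the same line for Ryr2 (r = 0.94), whereas Cacna1c is scattered (r = 0.44).

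The genes most like each member over the 10 mice, named below, were all outside the members and the calcium lists. Mfn2 (r = 0.99), Immt (0.98) and Pptc7 (0.98) were closest to Atp2a2, and their adjusted p was 0.00396. Closest to Ryr2 were Eprs (0.99), Lpgat1 (0.97) and Trip11 (0.97), and closest to Casq2 were Gpd1l (0.98), Pmpca (0.97) and Mfap3l (0.97). Pln went with Pde1c (0.97), Lias (0.95) and Ctnna1 (0.95), Hrc with Ik (0.96), Anxa6 (0.96) and Dbt (0.95), and Camk2d with Ky (0.97), Chrm2 (0.95) and Nsun3 (0.94). For Cacna1c (Xrn1 0.96, Frs2 0.95 and Tmem245 0.93) and Jph2 (Cdc37l1 0.95, Eps15l1 0.94 and Fam160a1 0.93) no gene passed the adjusted threshold, the smallest adjusted p of those named being 0.168 and 0.250. Of the 10091 other genes, the number that passed was 1716 for Atp2a2, 1010 for Casq2, 985 for Ryr2, 184 for Hrc, 126 for Camk2d, 13 for Pln and 0 for Cacna1c and Jph2.

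The promoters of Ryr2, Casq2 and Hrc are shown, the 3 members with the highest r with Atp2a2, which itself has no entry in the promoter table, nor has Sln. They span 250 bases before to 50 after the annotated start in RefSeq, build GRCm38.p6, and are written 5′ to 3′ on the strand of the gene, minus for Ryr2 and plus for Casq2 and Hrc. Capitals mark CTAAAAAT, searched on both strands, which covers most of the binding consensus of MEF2, a transcription factor family of muscle, and was chosen after the promoters had been read.
Ryr2, chr13:12106896-12107195: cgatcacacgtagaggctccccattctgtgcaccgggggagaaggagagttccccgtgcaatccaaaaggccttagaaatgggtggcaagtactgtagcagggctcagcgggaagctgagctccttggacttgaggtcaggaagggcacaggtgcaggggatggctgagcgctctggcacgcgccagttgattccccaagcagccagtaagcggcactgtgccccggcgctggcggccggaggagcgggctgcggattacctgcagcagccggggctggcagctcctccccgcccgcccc
Casq2, chr3:102086165-102086464: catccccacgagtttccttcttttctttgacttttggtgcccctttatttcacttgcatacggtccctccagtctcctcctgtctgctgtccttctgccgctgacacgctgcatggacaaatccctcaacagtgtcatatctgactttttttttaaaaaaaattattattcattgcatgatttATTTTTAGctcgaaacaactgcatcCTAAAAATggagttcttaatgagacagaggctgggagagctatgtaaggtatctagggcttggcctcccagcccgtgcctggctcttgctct
Hrc, chr7:45335019-45335318: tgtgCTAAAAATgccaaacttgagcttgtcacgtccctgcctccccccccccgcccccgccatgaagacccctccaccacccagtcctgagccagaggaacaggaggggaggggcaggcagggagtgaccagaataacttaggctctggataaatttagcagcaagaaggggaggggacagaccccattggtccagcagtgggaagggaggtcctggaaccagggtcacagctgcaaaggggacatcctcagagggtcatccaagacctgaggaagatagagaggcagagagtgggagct
Casq2 held 2 matches, beginning 67 and 42 bases before the start, and Hrc 1 match, beginning 246 bases before it. Ryr2 held 0. The same letters were found in 366 of 32851 promoters of this length (1.11%), and in 2 of 11 promoters of members, which belong to 8 genes. The full MEF2 consensus matched in 1 member promoter, that of Casq2, 69 bases before the start and overlapping a marked match, and in 3.19% of all promoters. TATAAA was present in Pln, 219 bases before the start, in 1 of 11 member promoters and 13.6% of all. GATAA was found in 3 of 11 and 25.4% of all, CATTCC in 0 of 11 and 14.7% of all, and CANNTG in 10 of 11 and 72.3% of all. These matches describe the letters and not binding.

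The deposited average transcript length of a gene is an effective length estimated per mouse, and for some members it varied more than the counts. Camk2d ran from 2006 bases in TT-588 to 6460 in TT-587 (3.22-fold), and Casq2 from 1428 bases in TT-588 to 3642 in TT-587 (2.55-fold). Over all tested genes the median of this ratio was 1.42, and 85.8% varied less than Camk2d. The 2 lengths varied together over the 10 mice (r = 0.83, permutation p = 0.00017, 0.00153 adjusted over 9 relations; rho 0.89, permutation p = 0.00146), with r = 0.76 without TT-588 and TT-587. Casq2 length ran against Casq2 CPM (r = -0.75, permutation p = 0.0129, adjusted p = 0.0582; rho -0.76, permutation p = 0.0145; r = -0.65 without TT-588 and TT-587), and did not pass the adjusted threshold.

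TPM divides each count by such a length. Camk2d was at 13.98 TPM in TT-588 and 3.09 in TT-587, a 4.52-fold range that was 1.53-fold in CPM, and its log2 fold change was 0.37 (95% interval -0.31 to 1.04, adjusted p = 0.813, edgeR) with lengths in the fit against -0.01 without. For Ryr2 (23711 to 29874 bases) and Jph2 (8692 to 10944 bases) every value exceeded the longest annotated transcript, of 16814 and 4211 bases, and so it did for Pln (2499 to 3658 against 2334 bases). The study's methods name salmon settings that correct for sequence, GC and position bias. The cause of the longer lengths was not tested. Nor was their effect on TPM, which also depends on the lengths of all other genes. Between groups, the length of 0 of 8 members passed the test. Cacna1c came nearest, with 5851 to 7582 bases in control and 6431 to 9322 bases in HFD+mTAC mice (log2 difference 0.23, 95% interval -0.01 to 0.48, adjusted p = 0.719, limma over 13287 genes, of which 0 passed and 499 had an unadjusted p under 0.05).

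**Figure D5:**
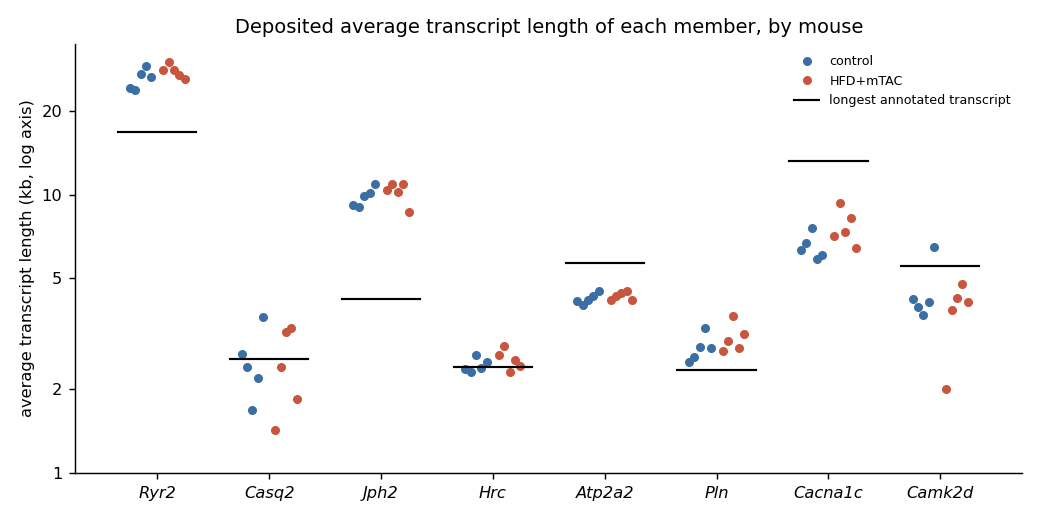
Deposited average transcript length of the 8 tested members in each control and HFD+mTAC mouse (points, kb on a log axis), with the longest annotated transcript (black lines). Camk2d and Casq2 spread 3.22-fold and 2.55-fold, and Ryr2, Jph2 and Pln lie above their longest annotated transcript.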

How the data were processed

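PolyA RNA of the left ventricle of 10 mice was sequenced. Per the study's methods, the authors trimmed reads with fastp, quantified them with salmon 1.6.0 against mouse GENCODE transcripts and summed them per gene with tximport. The labels name hg38 as a build for this mouse series, and labels and methods differ on read layout, so build and layout are taken as not settled. The deposited tables hold expected counts (20.1% not whole, rounded here), TPM, and average effective transcript lengths (deposited as a signal per gene and mouse, in bases). TPM equalled count over length within a relative difference of 0.000507. The depth was 34170139 to 53672260 counts per mouse, and it limits precision only for low genes.

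Genes were matched to GENCODE M21 and RefSeq symbols (27812 by symbol, 850 by an older symbol, 902 not matched), and protein-coding genes with a count of at least 1 in at least 9 mice, not encoded by mitochondrial DNA, were kept. Groups were compared with edgeR 4.0.16 (quasi-likelihood, TMM), with all 10 mice and no covariate. Adjusted p-values are Benjamini-Hochberg over all genes tested, and the threshold was 0.05. DESeq2 1.42.0, limma 3.58.1 on log2(TPM + 1) and log2(TPM + 0.1), other filters, a length offset, cardiomyocyte marker scaling and each mouse left out were alternatives. Lengths were tested with limma on log2 values. Correlations used log2 CPM, 100000 permutations and two-sided p-values. Libraries of a group differed far beyond counting noise (chi-square per degree of freedom 12.9 to 53.8 over 20 pairs). Each library came from a different mouse. The scripts were tested on simulated data.

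The members and lists were chosen with earlier results of these data known. Named genes were all members, and from each of the 5 calcium lists the called genes and the 2 genes of smallest p in each direction, of which some are not reported here. The 3 genes of highest r are given for each member.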

Additional observations from a re-analysis of the deposited data

Results flagged for a closer look

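Within groups of 5, 56 sets of values were searched for a mouse far from the other 4, and 3 were found. Chance alone marks about 1 in 20 such sets. Control mouse TT-587 had a Camk2d average transcript length of 6460 bases, with the other control mice at 3707 to 4229. Its Camk2d TPM was 3.09, with the others at 5.89 to 6.82, while its Camk2d CPM of 148 lay inside the control range. HFD+mTAC mouse TT-591 had a Pln to Atp2a2 ratio of 0.938, with the others at 0.527 to 0.586.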

How the results depend on the processing

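No paired analysis was possible because the mice of the 2 groups share no replicate number. None of the 8 members was called under any of the 18 alternatives, leaving each mouse out included (0 to 0). Genes called over the whole table numbered 8, and were 120 with DESeq2, 178 scaled to cardiomyocyte markers, 1 by limma on log2(TPM + 1), log2(TPM + 0.1), without a filter and with a length offset, and 1 to 9 with a mouse left out. Other calcium genes called numbered 0, 1 by DESeq2 (Calr), 1 scaled to markers (Itpr3), and 0 to 0 with a mouse left out.

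The uncalled log2 fold changes changed sign as follows. Scaled to cardiomyocyte markers they were 0.12 (Ryr2), 0.10 (Atp2a2), 0.049 (Pln), 0.13 (Casq2), 0.18 (Camk2d), 0.022 (Hrc) and 0.16 (Jph2). By limma on TPM with a pseudocount of 1 and of 0.1 they were 0.070 and 0.070 (Casq2), -0.066 and -0.068 (Cacna1c) and 0.31 and 0.31 (Camk2d), and with a length offset 0.067, -0.086 and 0.37. With a mouse left out they ran from -0.16 to 0.016 (Ryr2), -0.20 to 0.037 (Atp2a2), -0.14 to 0.033 (Casq2), -0.017 to 0.21 (Cacna1c), -0.082 to 0.067 (Camk2d) and -0.092 to 0.044 (Jph2). Without TT-591, 5 of 8 members were higher in HFD+mTAC mice, and without TT-588, 0 of 8.

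The log2 ratio difference of Jph2 to Cacna1c was -0.12 in CPM and ran from -0.15 to 0.20 with a mouse left out, that of Ryr2 to Cacna1c from -0.21 to 0.055, and the Casq2 length difference from -0.21 to 0.10. Pairs of members with r of at least 0.7 numbered 13, and 9 to 16 with a mouse left out. They were 16 in TPM, 15 per marker count and 15 without group means, which were chosen after the data were seen.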
